A study of Sus scrofa with 14 samples.

Results

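The genes described here are 6 enzymes whose transcription is driven by NRF2, namely NQO1, GCLC, GCLM, HMOX1, PTGR1 and UGDH, out of 3022 genes with a nameable probe on the array. A probe was taken as one of a member when the RefSeq accession in the scanner file belonged to that gene (9 probes, for NQO1, GCLM, HMOX1 and PTGR1) or when the list of affected pig probes in the study's supplement gave it that name (2 probes, for GCLC and UGDH). That list holds probes changed more than 1.5-fold in at least 3 of the 7 pigs, so GCLC and UGDH were found through their own response. Their values are therefore given as a description, without a p-value. In all, the members had 11 probes: 3 for NQO1, 3 for HMOX1, 2 for PTGR1 and 1 each for GCLC, GCLM and UGDH. The probe that stands for a gene is A_72_P536730 for NQO1, A_72_P108316 for GCLC, A_72_P475755 for GCLM, A_72_P078091 for HMOX1, A_72_P502451 for PTGR1 and A_72_P048526 for UGDH.

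The samples were mucosal scrapings of jejunum from 5-week-old male piglets of 8.2 kg under anaesthesia, in which segments with an intact blood supply were perfused for 6 h (the small intestinal segment perfusion, or SISP, model). Pigs 1, 2 and 4 gave a segment filled with saline digest (Sd, the control) and one filled with yellow onion digest (YOd), and pigs 5, 6, 7 and 8 gave an Sd segment and one with white onion digest (WOd), which makes 14 arrays. Per the study's methods, Sd was diluted in a saline solution and the onion digests in peptone, and Sd was diluted more than the onion digests. The onion, its diluent and the larger share of digestion mix thus cannot be told apart. No pig received both onions, so a difference between YOd and WOd cannot be told apart from a difference between pigs.

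NRF2 (NFE2L2) is a transcription factor that KEAP1 holds back and marks for breakdown in unstressed cells. Electrophiles and oxidants modify KEAP1, after which NRF2 accumulates and binds antioxidant response elements near genes for detoxification, glutathione synthesis and NADPH supply. The intestinal epithelium meets many such compounds in food, and its enzymes of this group act on them before they reach the blood.

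Each value below is the log2 of the processed spot signal over the 75th percentile of that array, so that 0 is the signal of the percentile and a step of 1 is a doubling. Values of different probes are not comparable with each other as levels. Background was clearly exceeded on each of the 14 arrays by 10 of the 11 probes. None of the probes that stand for a gene was saturated, and saturation of the other member probes is not given here. The GCLM spot on the Sd array of pig 8 was marked as an outlier by the scanner software and was left out, which leaves 13 GCLM values and a ratio in 6 pigs. The arrays had 50.05% to 70.7% of their probes well above background, and the number of arrays limits the precision. In 5 pigs both arrays lay on 1 slide. In pigs 2 and 7 the Sd array lay on a slide of its own scan day and the onion array on another slide, so that slide and digest cannot be told apart within those 2 pigs.

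The enterocyte markers were high on every array, with a mean log2 level of the 12 markers measured between 6.21 and 6.96 and none at the floor. Of these 12, 10 were saturated on most arrays, so their level is a lower bound. The labelled tissue was thus borne out, and scrapings also held RNA of other cells, with a mean log2 level of 2.10 to 3.09 over the 6 smooth muscle markers in the Sd segments. In such mixed samples, fewer cells of a type and less RNA per cell cannot be told apart.

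NQO1 is a quinone reductase that passes 2 electrons to quinones and is a standard readout of NRF2. Its log2 level in the Sd segments was 1.61, 0.27 and 1.95 in pigs 1, 2 and 4, and in the YOd segments of the same pigs 2.95, 0.42 and 3.16. In pigs 5, 6, 7 and 8 it was 0.12, 0.70, 1.22 and 0.62 with Sd, and 1.61, 1.87, -0.43 and 1.78 with WOd. The onion segment was the higher in 6 of 7 pigs, and the WOd array of pig 7 was the lowest NQO1 value of the 14. With pig 7 set aside, the 3 WOd values lay above the 3 Sd values of their pigs. With yellow onion, the values of YOd and Sd overlapped, since pig 2 was low in both segments.

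GCLC and GCLM are the catalytic and the modifier subunit of glutamate-cysteine ligase, the enzyme of the first and limiting step of glutathione synthesis. The GCLC log2 level was -1.08, -1.72 and -0.67 with Sd and 0.08, -1.43 and -0.27 with YOd in pigs 1, 2 and 4. In pigs 5 to 8 it was -1.60, -2.69, -0.49 and -1.04 with Sd and -0.94, -1.39, -1.71 and -0.25 with WOd. GCLC was higher with onion in 6 of 7 pigs, but each pair of groups overlapped. The GCLM log2 level was -2.67, -3.19 and -2.45 with Sd and -2.32, -2.67 and -2.04 with YOd. In pigs 5, 6 and 7 the GCLM level was -2.17, -2.84 and -2.37 with Sd, and with WOd it was -1.85, -2.72, -3.03 and -1.63 in pigs 5, 6, 7 and 8. It was higher with onion in 5 of 6 pigs, by less than 1.5-fold in each of them.

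HMOX1 is haem oxygenase 1, which splits haem into biliverdin, iron and carbon monoxide. Its log2 level was 3.94, 4.09 and 3.70 with Sd and 4.30, 4.43 and 5.07 with YOd in pigs 1, 2 and 4. By this probe, the one that stands for the gene, the YOd values of HMOX1 all lay above the Sd values of the same 3 pigs. By each of the other HMOX1 probes the YOd and Sd values overlapped. In pigs 5 to 8 the probe that stands for the gene read 3.09, 3.21, 3.88 and 4.28 with Sd and 3.53, 3.20, 3.85 and 4.29 with WOd. Those 2 sets covered almost the same range.

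PTGR1, prostaglandin reductase 1, reduces the double bond of eicosanoids and other reactive aldehydes and ketones. Its log2 level was 5.51, 4.43 and 5.61 with Sd and 6.39, 4.42 and 5.98 with YOd, and in pigs 5 to 8 it was 4.31, 3.37, 5.18 and 5.26 with Sd and 5.16, 4.50, 4.83 and 5.34 with WOd. UGDH makes UDP-glucuronic acid, the sugar donor of glucuronidation. The UGDH log2 level was 1.18, 0.26 and -0.16 with Sd and 1.85, 0.16 and 0.95 with YOd in pigs 1, 2 and 4, and 0.77, -1.29, 0.52 and 1.03 with Sd and 1.43, -0.44, -0.82 and 1.68 with WOd in pigs 5 to 8. Both genes were higher with onion in 5 of 7 pigs, lower in pigs 2 and 7, and overlapped between the groups.

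**Figure D1:**
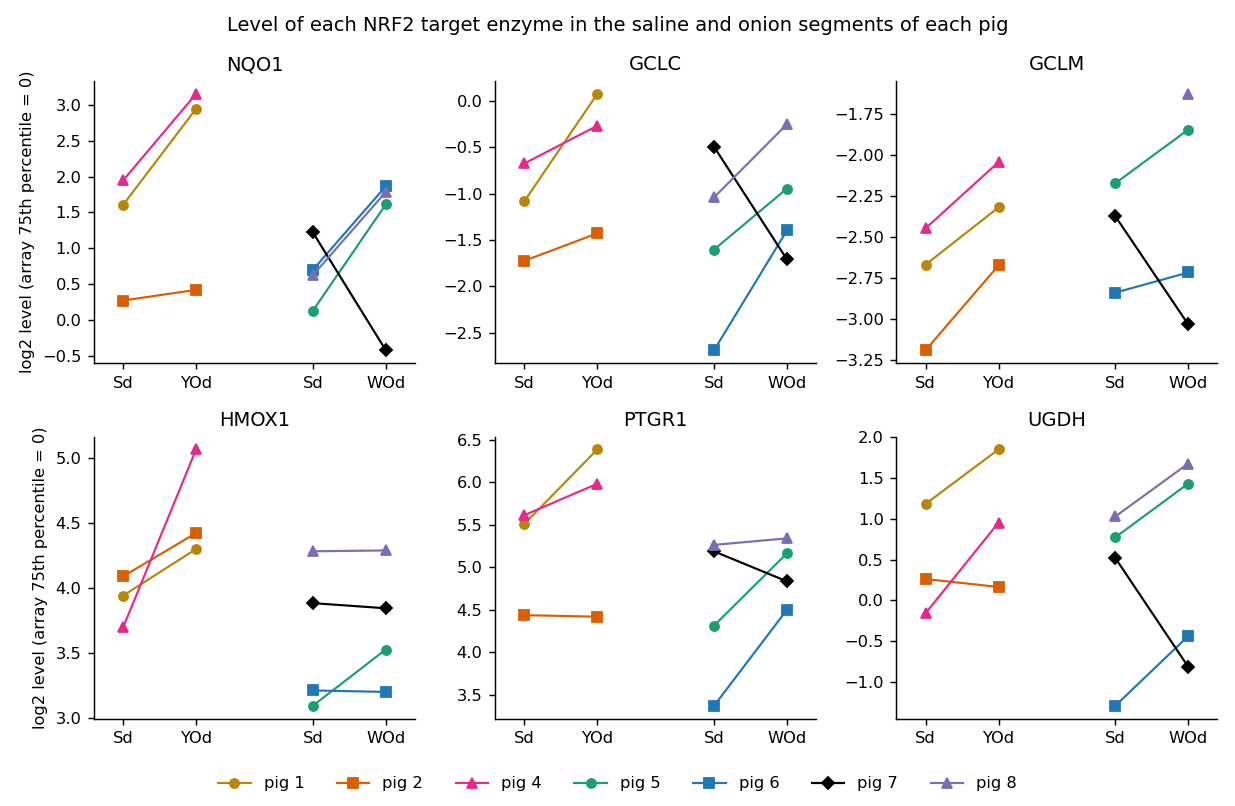
Log2 level of each enzyme (y axis, 0 is the 75th percentile of the array) in the Sd and onion segments of each pig, with a line joining the 2 segments of 1 pig; the y axes differ between panels, and GCLM of pig 8 has its WOd value only. Most lines rise from Sd to onion, those of pig 7 (black) fall, and those of pig 2 (orange squares) are nearly flat for NQO1, PTGR1 and UGDH.

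The 4 groups were ranked by their mean level for each gene, with the Sd segments of the YOd pigs and of the WOd pigs kept apart. YOd had the highest mean for NQO1, GCLC, HMOX1, PTGR1 and UGDH. For GCLM, WOd came first only through pig 8, whose Sd value is missing: over the pigs with both segments WOd stood at -2.53 ± 0.61 (SD, n = 3), below YOd at -2.34 ± 0.32 (SD, n = 3) and below Sd of its own pigs at -2.46 ± 0.34 (SD, n = 3). For HMOX1, the YOd mean of 4.60 ± 0.41 (SD, n = 3) exceeded the next, Sd of the same pigs at 3.91 ± 0.20 (SD, n = 3), by more than either SD. This was 1 of 18 neighbouring pairs of means. The other 17 lay within the larger SD of the pair: for NQO1, for example, YOd was 2.17 ± 1.52 (SD, n = 3), Sd of the same pigs 1.27 ± 0.89 (SD, n = 3), WOd 1.21 ± 1.10 (SD, n = 4) and Sd of the WOd pigs 0.67 ± 0.45 (SD, n = 4). In the 7 Sd segments alone, NQO1 covered a 3.53-fold range, GCLC 4.58-fold, HMOX1 2.28-fold, PTGR1 4.74-fold and UGDH 5.57-fold, while GCLM covered 2.02-fold in 6. The spread between pigs was thus of the size of the onion response or larger, and the comparisons below were made within pigs.

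Within pigs, 32 of the 41 measured onion over Sd ratios of the members were above 0 on the log2 scale, and 18 of them exceeded 1.5-fold. These counts include GCLC and UGDH, which were found through such ratios. For the 4 members named by accession, 21 of 27 ratios were above 0 and 9 exceeded 1.5-fold. Depending on the pig, 41.8% to 73.5% of all genes tested were above 0 and 2.04% to 18.4% exceeded 1.5-fold. Outside pig 7, 32 of the members' 35 ratios were above 0, and none of the 3 others was below by 1.5-fold. NQO1 was 2.54-fold in pig 1, 1.11-fold in pig 2, 2.31-fold in pig 4, 2.80-fold in pig 5, 2.25-fold in pig 6, 0.319-fold in pig 7 and 2.24-fold in pig 8. It was therefore above 2-fold in 5 pigs, those whose arrays shared a slide, at 1.27 ± 0.14 on the log2 scale (SD, n = 5). UGDH was above 1.5-fold in the same 5 pigs, between 1.57-fold in pig 8 and 2.16-fold in pig 4. GCLC was above 1.5-fold in pigs 1, 5, 6 and 8, from 1.58-fold to 2.45-fold. PTGR1 passed that size in pigs 1, 5 and 6, at 1.84-fold, 1.80-fold and 2.19-fold, and stood at 1.05-fold in pig 8. HMOX1 passed it in pig 4 only, at 2.59-fold.

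Pig 7 was the opposite. By the probe that stands for each gene, all 6 members were lower in its WOd segment than in its Sd segment, and for each of them it had the lowest ratio of all pigs. NQO1, GCLC, GCLM and UGDH were below by more than 1.5-fold, with UGDH at 0.396-fold, GCLC at 0.430-fold and GCLM at 0.633-fold. PTGR1 was 0.783-fold and HMOX1 0.973-fold. The median log2 ratio of the members was -0.94 in pig 7, against 0.77, 0.22, 0.76, 0.66, 0.99 and 0.65 in pigs 1, 2, 4, 5, 6 and 8. The median over all genes tested was 0.09 in pig 7 and lay between -0.07 and 0.20 in the other pigs. In pig 7, 8.39% of all genes were below by more than 1.5-fold and 10.5% above.

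Of the enterocyte markers, only SLC15A1 and CDH1 were below saturation on every array and can show a change. In pig 7 both were lower in WOd, by -0.20 and -0.87 on the log2 scale. In pig 8, where no member was lower, they stood at -0.56 and -0.14, and in pigs 5 and 6 both were higher, by 0.46 and 0.39 on average. In pig 7 the 6 smooth muscle markers were all lower in WOd, by -0.55 on average, and both goblet markers were higher, by 0.79. Pig 6, in which 4 members exceeded 1.5-fold, had 8 of the 10 unsaturated lymphocyte markers lower with WOd, by -1.63 on average over the 10. Pig 4, with the highest HMOX1 and UGDH ratios, had 5 of 6 crypt markers lower, by -0.67 on average over the 6, with SLC15A1 at 0.07 and CDH1 at -0.67. Crypt markers were lower for 5 of 6 also in pigs 5, 6 and 8, with means of -0.19, -0.19 and -0.43. In pig 1, 4 of the 6 were lower (mean -0.13) and in pig 2, 3 were (mean 0.05). In pig 7, 4 of the 6 were higher (mean 0.12). The part of these cell types in the members' ratios was not tested.

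**Figure D2:**
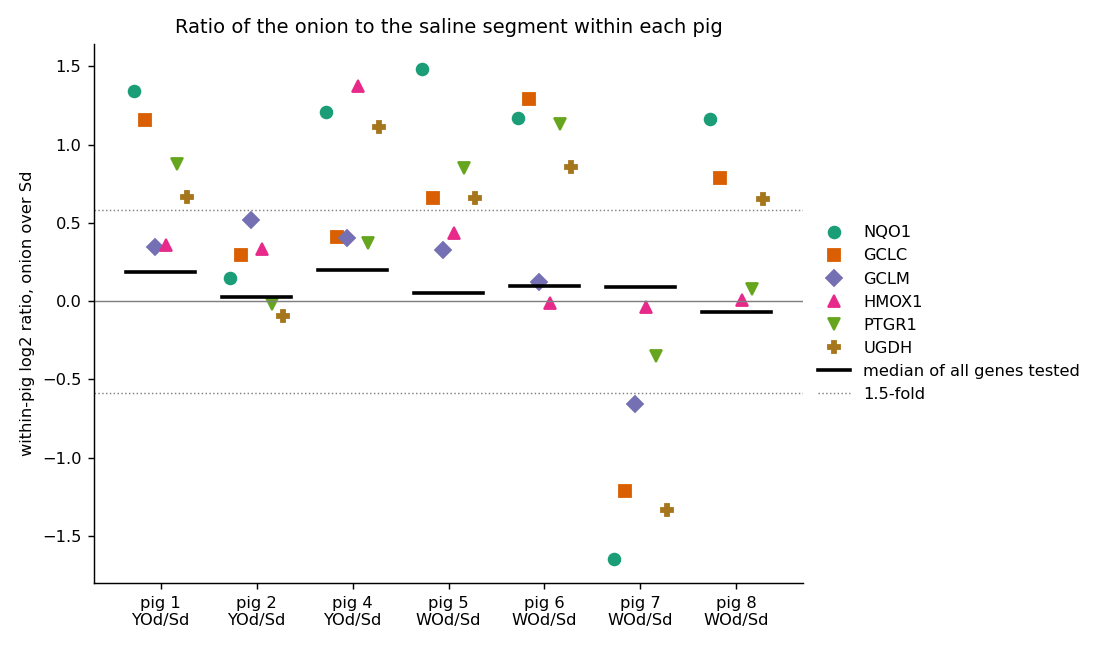
Within-pig log2 ratio of the onion over the Sd segment (y axis) for the 6 enzymes in each of the 7 pigs, with the median over all genes tested as a black bar and 1.5-fold as dotted lines. In pigs 1, 4, 5, 6 and 8 nearly all enzymes lie above the bar, in pig 2 all lie within 1.5-fold of 0, and in pig 7 all lie below 0; GCLM of pig 8 has no ratio.

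Yellow onion was compared with Sd in pigs 1, 2 and 4 by limma with the pig as a block, and a gene counted as affected at more than 1.5-fold with an unadjusted p under 0.05. Of the 4 members named by accession, NQO1 and HMOX1 passed both thresholds upward, where 3.69% of the 2466 genes tested passed upward and 4.66% in either direction. NQO1 was 1.87-fold (log2 0.90, SE 0.25) and HMOX1 1.61-fold (log2 0.69, SE 0.23), each higher in 3 of 3 pigs by the probe used. In pig 2 both other HMOX1 probes were below 0, at -0.26 and -0.005, and so was 1 other NQO1 probe, at -0.02. GCLM passed the threshold on the unadjusted p but, at 1.34-fold (log2 0.42, SE 0.14), not that on the fold. PTGR1 was 1.33-fold (log2 0.41, SE 0.20) and did not pass. GCLC stood at 1.54-fold (log2 0.62, SE 0.20), with 3 of 3 pigs above 0, and UGDH at 1.47-fold (log2 0.56, SE 0.24), as a description. After Benjamini-Hochberg adjustment over all genes tested, NQO1, GCLM, HMOX1 and PTGR1 each had an adjusted p of 0.387 in limma, and no gene of the 2466 had one below 0.05 (276 had an unadjusted p under 0.05). The median log2 fold change was 0.56 over the 4 members named by accession and 0.59 over all 6, and 0.14 over all genes tested.

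The calls depended on the pigs and on the scaling. Without pig 2, the pig with the lowest NQO1 ratio of the 3, NQO1, HMOX1 and PTGR1 passed among the 4 named by accession, where 10.2% of genes did upward, and the NQO1 estimate was 1.28 (SE 0.19) on the log2 scale. Without pig 1 HMOX1 alone passed, and without pig 4 none of the 4. Without scaling of the arrays none passed and the median of all genes moved from 0.14 to -0.16, and with each array centred on its median gene NQO1 alone passed. All 6 members kept a fold change above 0 under these scalings.

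White onion was compared with Sd in pigs 5, 6, 7 and 8, and none of the 4 members named by accession was affected, with 0.77% of the 2469 genes tested affected upward. NQO1 was 1.46-fold (log2 0.54, SE 0.50), PTGR1 1.34-fold (log2 0.43, SE 0.26) and HMOX1 1.07-fold (log2 0.10, SE 0.16). GCLC stood at 1.30-fold and UGDH at 1.15-fold. GCLM, without pig 8, was 0.953-fold (log2 -0.07, SE 0.24). The adjusted p of NQO1, GCLM, HMOX1 and PTGR1 was 0.998 in limma, 68 genes had an unadjusted p under 0.05, and no gene had an adjusted p below 0.05. The median log2 fold change was 0.26 over the 4 members named by accession and 0.29 over all 6, and that of all genes 0.04.

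These estimates turned on pig 7. It is also the pig with the lowest ratio of every member, so the values without it are conditioned on the outcome. Without it NQO1 and PTGR1 passed both thresholds upward among the 4 members named by accession, where 1.89% of genes did. NQO1 was then 2.42-fold (log2 1.27, SE 0.20) and PTGR1 1.61-fold (log2 0.69, SE 0.24), with limma adjusted p-values of 0.0961 and 0.731. HMOX1 stayed at 1.10-fold and GCLM at 1.17-fold. GCLC stood at 1.88-fold (SE 0.21 on the log2 scale) and UGDH at 1.65-fold (SE 0.19).

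Over the 7 pigs, none of the 4 members named by accession passed both thresholds by the probe used, with 0.937% of the 2455 genes tested affected upward. PTGR1 passed the threshold on the unadjusted p but stood at 1.34-fold (log2 0.42, SE 0.18). Its second probe, in limma over every probe, stood at -0.05 (SE 0.47) on the log2 scale. NQO1 was 1.62-fold (log2 0.70, SE 0.33), HMOX1 1.28-fold (log2 0.35, SE 0.16) and GCLM 1.13-fold (log2 0.18, SE 0.16), and none of them passed the threshold on p. GCLC was 1.40-fold (SE 0.25 on the log2 scale) and UGDH 1.28-fold (SE 0.25). Adjusted p-values in limma were 0.657 for NQO1, HMOX1 and PTGR1 and 0.705 for GCLM. In the exact two-sided sign-flip permutation test over 7 pigs, whose smallest p is 0.0156, p was 0.203 for NQO1, 0.109 for HMOX1 and 0.109 for PTGR1. It was 0.344 for GCLM over 6 pigs.

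Without pig 7, NQO1 alone passed both thresholds among the 4 named by accession, where 1.55% of genes did upward. NQO1 was 2.12-fold (log2 1.09, SE 0.17, limma adjusted p = 0.146), and pig 7 was the only one with a ratio below 0, so that all 6 left were above 0 by that choice. GCLC was 1.70-fold and UGDH 1.56-fold. PTGR1 at 1.46-fold (limma adjusted p = 0.343) and HMOX1 at 1.33-fold (limma adjusted p = 0.449) were below the fold threshold. With pigs 2 and 7 both left out, an alternative chosen after seeing the data, only pigs with both arrays on 1 slide remain. These are also the 2 pigs with the lowest NQO1 ratios, so the result is given as a description: NQO1 stood at 2.42-fold (log2 1.27, SE 0.13), and NQO1 and PTGR1 were past both thresholds, where 2.31% of genes were.

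**Figure D3:**
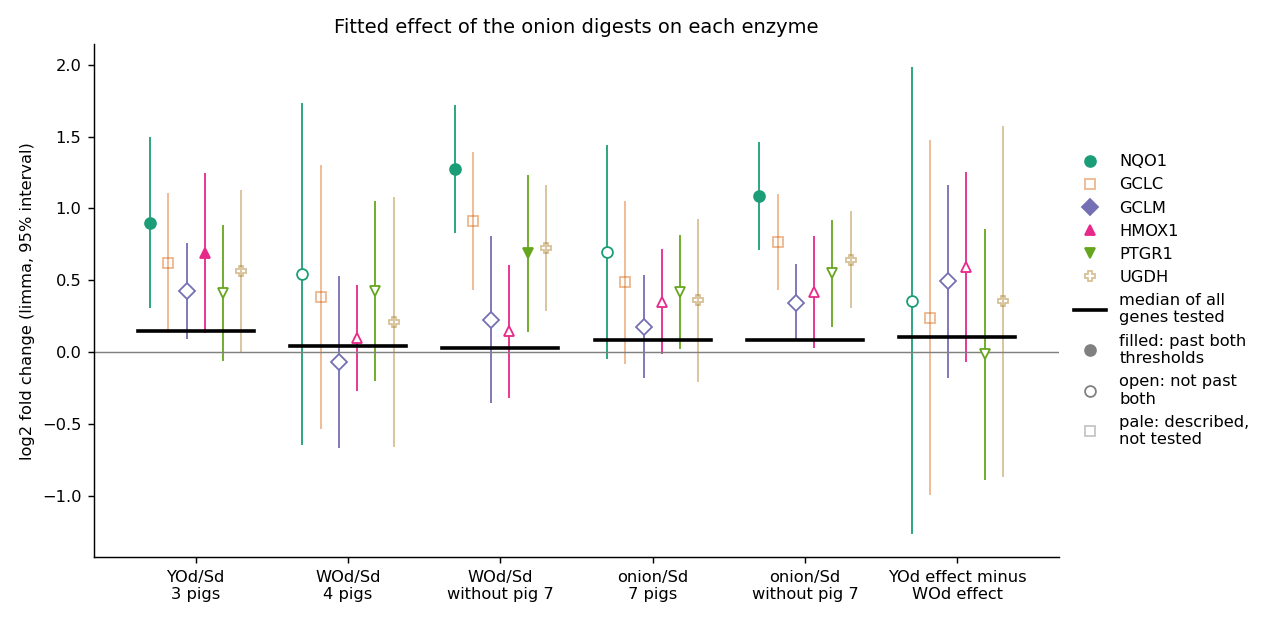
Log2 fold change (y axis) of each enzyme in limma with its 95% interval, by comparison; filled symbols passed both the unadjusted p of 0.05 and the 1.5-fold threshold, open ones did not, pale open ones (GCLC and UGDH) are a description only, and black bars are the median of all genes tested. GCLM has no pig 8 ratio in any fit. When pig 7 is left out, the intervals for white onion shorten except that of HMOX1, and NQO1 moves from 0.54 to 1.27.

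The YOd effect minus the WOd effect passed the thresholds for none of the 4 members named by accession, where 3.64% of the 2555 genes tested passed in either direction, 2.35% with the higher effect in YOd and 1.29% with the higher in WOd. The difference was 0.59 on the log2 scale for HMOX1 (95% interval -0.07 to 1.25, limma adjusted p = 0.846) and 0.49 for GCLM (-0.18 to 1.16, adjusted p = 0.846). It was 0.36 for NQO1 (-1.27 to 1.98, limma adjusted p = 0.938) and -0.02 for PTGR1 (-0.89 to 0.86, adjusted p = 0.993). The intervals of NQO1 and PTGR1 span differences of more than 1.5-fold in both directions, so this design does not show that the onions act alike. Without pig 2 the HMOX1 difference was 0.77 (limma adjusted p = 0.692) and passed both thresholds.

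The probes of NQO1 gave similar ratios. Their within-pig ratios correlated with r = 0.946 to 0.979 across the 7 pigs, a description, and each had its lowest ratio in pig 7, at -1.85, -1.65 and -1.24. In limma over every probe of the array, their YOd/Sd log2 fold changes were 0.99, 0.90 and 0.75.

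The 3 probes of HMOX1 differed more. Their ratios correlated with r = 0.652 to 0.721, and all 3 were highest in pig 4, at 1.37, 1.65 and 1.07. In pig 7 they read -0.04, 0.29 and 0.77, so the place of HMOX1 below 0 in that pig holds for the brightest probe only. The YOd/Sd log2 fold changes of the HMOX1 probes were 0.69 (SE 0.24), 0.51 (SE 0.36) and 0.42 (SE 0.23), and the HMOX1 call holds for the brightest of them alone. The macrophage and granulocyte markers, cells in which HMOX1 is also expressed, were higher with onion by 0.84 in pig 1, 0.25 in pig 4 and 0.56 in pig 5 on average over the 6 unsaturated ones, and differed by -0.20 to 0.10 in the other 4 pigs. Their part in the HMOX1 ratio was not tested.

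The 2 probes of PTGR1 disagreed in level. The probe used here, the brighter on average, ranged from 3.37 to 6.39. The second ranged from -2.97 to 6.29: it read -2.68 and -1.57 in the Sd and YOd segments of pig 1, 0.61 and -2.97 in the Sd and WOd segments of pig 7, 1.05 and 1.27 in those of pig 8, and between 4.37 and 6.29 on the 8 arrays of pigs 2, 4, 5 and 6. Readings below those of pigs 2, 4, 5 and 6 thus came in both segments of pigs 1, 7 and 8. In pig 7 the WOd reading was far below the Sd reading, and the cause was not tested. Across the 14 arrays the levels of these probes correlated with r = -0.33, a description. Their ratios had the same sign in 6 of 7 pigs, and in pig 7 the second probe fell by 3.58 on the log2 scale, against -0.35 for the first. In limma over every probe, the second probe had a log2 fold change of 0.55 (SE 0.21) with yellow onion. It had -0.50 (SE 0.69) with white onion and -0.05 (SE 0.47) over the 7 pigs, so the PTGR1 estimates above 0 in those comparisons hold for the probe used.

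**Figure D4:**
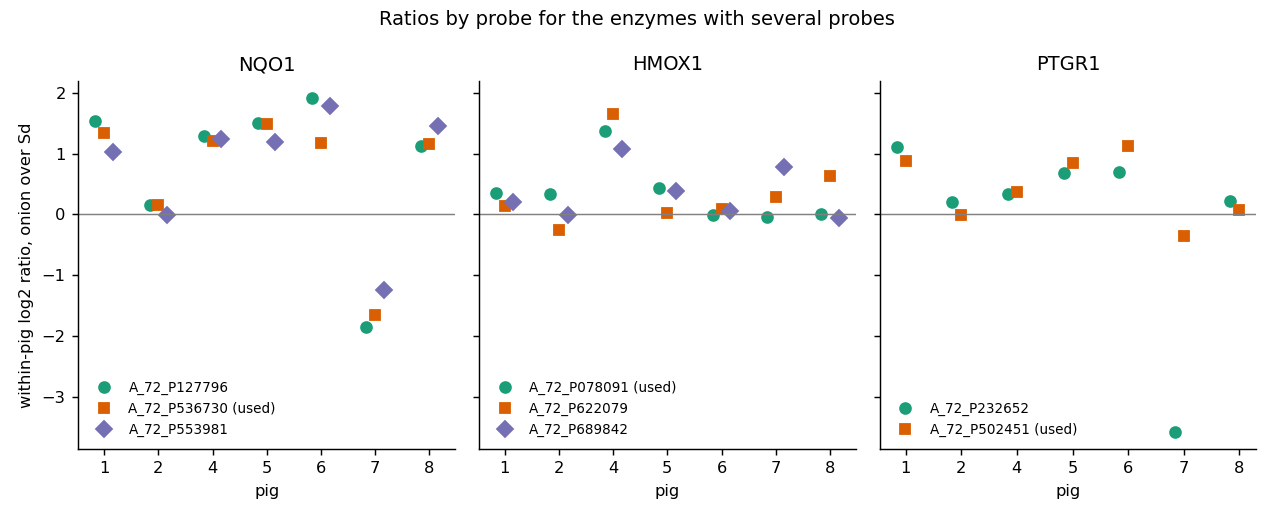
Within-pig log2 ratio of the onion over the Sd segment (y axis) by pig (x axis) for each probe of NQO1, HMOX1 and PTGR1; the probe that stands for the gene is marked as used. The NQO1 probes lie close in most pigs and from 1.17 to 1.92 in pig 6. The HMOX1 probes spread from -0.04 to 0.77 in pig 7, and the second PTGR1 probe lies at -3.58 there.

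How far the members moved together was measured by correlating their within-pig ratios over the pigs, for all 15 pairs. The median Pearson's r was 0.74, from 0.085 to 0.967, while the median over all pairs of the genes tested was 0.075 (quartiles -0.265 and 0.398). Of these pairs 9 hold GCLC or UGDH, which were chosen on their ratios, and had a median r of 0.78. The 6 pairs of members named by accession had a median r of 0.50, from 0.097 to 0.808. The 10 pairs without HMOX1 had a median of 0.79 and none below 0.476. Setting HMOX1 apart, whose pairs include the lowest r, raises this median by choice, and most of these 10 pairs hold GCLC or UGDH. The 5 pairs with HMOX1 had a median of 0.36. NQO1 and UGDH had the highest r, 0.967 (Spearman's rho 0.679), and NQO1 and GCLC followed with 0.919 (rho 0.536). GCLC and UGDH stood at 0.879, GCLC and PTGR1 at 0.821 (rho 0.893), and NQO1 and GCLM at 0.808 over 6 pigs (rho 0.20). The subunits GCLC and GCLM of the same enzyme had r = 0.744 and rho = -0.086 over 6 pigs.

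Tests were made for the pairs whose members were both named by accession. NQO1 and PTGR1 gave r = 0.768 with an exact permutation p of 0.00754 and rho = 0.75 with an exact permutation p of 0.0663. Adjusted over the 2401 genes correlated with NQO1, the p of r was 0.476. NQO1 and GCLM gave exact permutation p-values of 0.146 for r and 0.714 for rho, and NQO1 and HMOX1 gave 0.373 for r = 0.358 and 0.0663 for rho = 0.75. HMOX1 and PTGR1 had r = 0.097 and rho = 0.286, with exact permutation p-values of 0.885 and 0.556, GCLM and HMOX1 had r = 0.532 and rho = 0.600 (0.228 and 0.242), and GCLM and PTGR1 had r = 0.476 and rho = -0.086 (0.372 and 0.919). No pair of members had an adjusted p below 0.05. The smallest exact permutation p, 0.000198 over 7 pigs and 0.00139 over 6, is too large for a single pair to reach that.

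The agreement rested on a few pigs. With the 2 pigs farthest from the median left out, pig 7 among them for every pair, the median r of the 15 pairs was -0.15 and that of NQO1 and PTGR1 was 0.378. With pig 7 alone left out, the 10 pairs that kept 6 pigs had a median r of 0.45, from -0.561 for GCLC and HMOX1 to 0.816 for NQO1 and UGDH. The 6 of these pairs without HMOX1, again a split made on the r values, lay between 0.374 and 0.816, with a median of 0.59. Most of these 6 hold GCLC or UGDH. Only 3 of the 10 were pairs of members named by accession, with r of -0.163, 0.099 and 0.647. Among the 5 pigs other than 2 and 7, NQO1 covered only 1.16 to 1.49 in log2 ratio, so that these pigs tell little of whether other members follow it.

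The levels themselves also ran together to a degree. Over the 7 Sd arrays the median r of the 15 pairs was 0.51, from -0.47 to 0.93, with 13 above 0, and over the 7 onion arrays it was 0.68, from 0.29 to 0.90, with 15 above 0. Over all pairs of genes tested these medians were 0.100 and 0.156. The arrays share the scaling, and these values are a description.

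**Figure D5:**
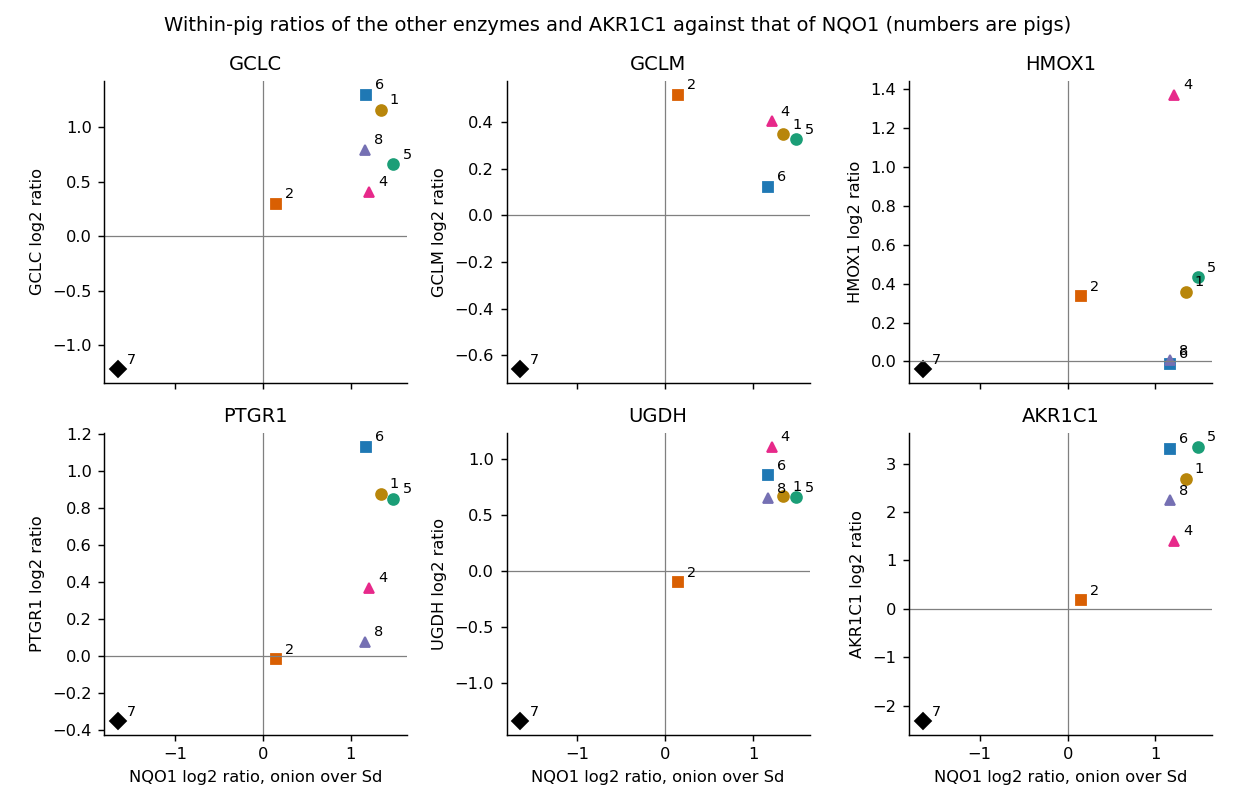
Within-pig log2 ratio of the other enzymes and of AKR1C1 (y axes) against that of NQO1 (x axis), 1 point per pig, numbered. In each panel pig 7 lies at the lower left, pig 2 near 0 for NQO1, and the remaining pigs form a group at an NQO1 ratio of 1.16 to 1.49; in the HMOX1 panel pig 4 stands alone at 1.37.

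For each member the 3 other genes with the most similar ratios over the pigs were taken by Pearson's r. For NQO1 these were AKR1CL1 (r = 0.978), SLC16A1 (0.963), the monocarboxylate transporter 1, and LOC733635 (0.963). AKR1CL1 also headed the list of UGDH (r = 0.978), followed by GHR (0.969), the growth hormone receptor, and UROS (0.967), an enzyme of haem synthesis. GCLC was nearest to DGKA (0.954), EPHX1 (0.945), the microsomal epoxide hydrolase, and NEU1 (0.945), a lysosomal sialidase. PTGR1 was nearest to ALDH5A1 (0.979), ADNP (0.975) and PGK1 (0.945), HMOX1 to LPCAT4 (0.971), TRIM31 (0.969), whose probe was saturated on 9 arrays, and IMP3 (0.955), and GCLM, over 6 pigs, to WHAMM (0.992), EIF1AX (0.986) and MC1R (0.983). The lists had AKR1CL1 in common between NQO1 and UGDH and no other gene. The r values were also taken without the 2 pigs farthest from the member's median, pig 7 among them for every member. For the neighbours of NQO1 r fell to 0.122, -0.075 and 0.444. It was 0.419, 0.814 and 0.745 for those of UGDH and 0.784, 0.635 and 0.433 for those of GCLC. MC1R had -0.456 with GCLM. The neighbours of PTGR1 and HMOX1, and WHAMM and EIF1AX with GCLM, kept an r of 0.771 to 0.984. The lowest adjusted p of any gene was 0.238 with NQO1 and 0.397 with PTGR1 by the exact permutation test. Over 7 pigs the smallest p of that test is 0.000198, from which 1 gene alone cannot pass adjustment over 2401 genes. The adjusted values thus cannot decide whether a single neighbour stands out.

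AKR1C1, an aldo-keto reductase whose probe may also read near-identical relatives of its family, had ratios of 6.44, 1.14 and 2.66-fold in pigs 1, 2 and 4 and of 10.2, 9.90, 0.201 and 4.72-fold in pigs 5, 6, 7 and 8. Its ratio correlated over the 7 pigs with r = 0.952 with NQO1 (exact permutation p = 0.00437, adjusted p = 0.476), 0.938 with GCLC, 0.887 with UGDH, 0.879 with PTGR1 and 0.112 with HMOX1. Pig 7 had the lowest ratio of AKR1C1 as of each member, and r without that pig is not given here.

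The other genes of the pathway were taken from 7 lists that name 85 genes beside the members, of which 34 had a nameable probe and were tested. With yellow onion 3 of the 34 were affected, all upward, where 3.69% of all genes tested were affected upward. They were AKR1C1 (2.69-fold, log2 1.43, SE 0.42), AKR1CL1 (1.67-fold, log2 0.74, SE 0.26) and UGP2 (1.64-fold, log2 0.72, SE 0.22), which makes the UDP-glucose that UGDH oxidises. These calls ended without pig 4 for all 3, and without pig 1 for AKR1CL1 and UGP2. All 3 also ended without scaling, with every gene kept, with the authors' values and without the pig block. In all, the AKR1C1 call ended in 5 of 16 alternatives, that of AKR1CL1 in 8 and that of UGP2 in 7. With white onion 1 was affected, upward, where 0.77% of all genes tested were affected upward. It was GPX2 at 1.59-fold (log2 0.67, SE 0.19), a glutathione peroxidase of the gut epithelium, which stood at 0.862-fold with yellow onion. GPX2 was a weak signal, with a mean log2 level of -2.51 in the Sd segments. It was not well above background on every array of the WOd pigs. The GPX2 ratio was highest in pig 7, at 1.22 on the log2 scale, and without that pig it was 1.39-fold and no longer affected. The call also ended with normexp (log2 0.41), the authors' values (0.37), the slide as a block (0.48) and no pig block. GPX2 was also the only one of the 34 with an affected difference between the onions, which 3.64% of all genes tested had. It was -0.88 on the log2 scale (SE 0.37, limma adjusted p = 0.846), a call that ended in 12 of 19 alternatives. Over the 7 pigs, where 0.937% of all genes tested were affected upward, AKR1C1 alone was affected, at 2.93-fold (log2 1.55, SE 0.59). This call ended when any one of pigs 1, 4, 5, 6 or 8 was left out, without scaling, with every gene kept, with the authors' values and without the pig block, and without pig 7 the fold was 4.58. Of the 34 genes, 9 had a probe saturated on at least 1 array, whose fold change is not exact. The median log2 fold change of the other 25 was 0.20 with yellow onion, 0.10 with white onion and 0.13 over the 7 pigs, against 0.14, 0.04 and 0.09 over all genes tested.

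By role, and over the unsaturated genes, the 6 reductases, hydrolases and dehydrogenases had a median of 0.40 with yellow onion and 0.28 with white onion, with 2 and 0 affected. For UGP2 and the efflux pump ABCG2 the medians were 0.59 and 0.24, with 1 and 0 affected. The 7 other genes of glutathione synthesis and recycling had medians of 0.20 and 0.12, with 0 and 1 affected, and the 4 of haem and iron 0.32 and 0.02, with none affected. In the thioredoxin and peroxiredoxin list, TXN, PRDX2 and PRDX5 were saturated, and the 3 others had medians of 0.04 and 0.07, with none affected. KEAP1 and GSK3B, regulators of NRF2, had medians of 0.11 and 0.01, and TKT, of NADPH supply, stood at 0.08 and 0.15, none of them affected. Of the 8 reductases, hydrolases and dehydrogenases, AKR1CL1, EPHX1, AKR1C1, CBR1 and AKR7A2 had a ratio that correlated with that of NQO1 at r = 0.978, 0.960, 0.952, 0.908 and 0.802. None of the other 26 genes exceeded 0.652, and 4.58% of all genes exceeded 0.8 with NQO1. These 5 genes were singled out after their values were seen. All 5 had their lowest ratio in pig 7, as NQO1 did, so that pig weighs heavily in these r values. For AKR1CL1 r with NQO1 was 0.122 without pigs 2 and 7.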

How the data were processed

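Mucosal scrapings of 14 SISP segments of 7 pigs were measured on 1-colour Agilent arrays, 1 per segment. The authors deposited scanner files with an intensity per spot, the processed signal of Feature Extraction after background subtraction, and a table of processed log2 values whose normalization was not stated; the labels' processing notes name RMA. Here spots marked as outliers were left out, spots of a probe averaged, each signal set relative to the 75th percentile of all signals of its array, floored at the pooled 40th percentile (log2 -4.43) and log2 values taken. Names came from RefSeq accessions in the files through the Sscrofa11.1 gene table, which served for names only (6686 of 43603 probes, 3020 genes); GCLC and UGDH came from the study's list of affected probes. For genes with several probes the brightest on average was used. Genes above the floor on at least as many arrays as the smaller group held were tested with limma 3.58.1 under R 4.3.3. The pig was a block, since both segments came from 1 animal (after removal of group means, arrays of a pig correlated with r = 0.492 to 0.717). Where a saturated probe would enter a list's mean or median it was left out. Permutation tests were run in Python 3.11.15. The code was tested on simulated data. Named were all members and their probes, the pathway genes past the thresholds with each list's counts, and the 3 genes most like each member. Members and lists were chosen with earlier results of these data known. Alternatives covered scaling, background, floor, filters, probe choice, the authors' values, the pig block, the slide and each pig. Pig 3 and sequences of the probes were not analysed here.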

Additional observations from a re-analysis of the deposited data

Results flagged for a closer look

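Over 23 groups of 4 to 7 values, a value was singled out when its gap to the nearest other was large for the range of its group (Dixon's test at the 95% level), which chance does in about 1 of 20 groups. Of 8 such values, 6 belonged to pig 7. Its WOd array had an NQO1 log2 level of -0.43, below the other 3 WOd arrays. Its within-pig log2 ratio of NQO1 was -1.65, apart from the other 6 pigs and also from the other 3 WOd pigs. Its ratios of GCLC (-1.22) and GCLM (-0.66, among 6 pigs) stood apart from those of the other pigs, and its UGDH ratio of -1.34 from those of the other WOd pigs. The Sd and WOd arrays of pig 7 lay on different slides and scan days, so slide, scan day and digest cannot be told apart in that pig. HMOX1 gave the other 2 values, a log2 ratio of 1.37 in pig 4 among the 7 pigs and of 0.43 in pig 5 among the WOd pigs, of which the other 3 lay between -0.04 and 0.01.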

How the results depend on the processing

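Counts of members here include GCLC and UGDH, found through their own response. With yellow onion 3 members were affected, 2 of them among the 4 named by accession, for which the alternatives gave 0 to 3; this was 0 without scaling, 0 with every gene kept, 0 with the authors' processed values, 1 without the replicate block (HMOX1), 1 with arrays centred on the median gene, 5 with the slide as a block and 5 without pigs 2 and 7, an alternative chosen after seeing the data, and 1 to 5 with a pig left out. With white onion 0 were affected, against 4 with the slide as a block, 4 without pigs 2 and 7, and 0 to 4 with a pig left out (4 without pig 7). Over the 7 pigs 0 were affected, against 1 with normexp, 4 with the slide as a block, 4 without pigs 2 and 7, and 0 to 3 with a pig left out. For the difference between onions 0 became 1 without pig 2, in a range of 0 to 1. The replicate block changed no other of these counts. A slide block uses up the contrast of pigs 2 and 7. The median of the members' mean ratios was 0.389, and 0.239 to 0.725 across the alternatives. The median r between members was 0.744, 0.504 among those named by accession, 0.407 with the authors' values, and 0.450 to 0.802 with a pig left out (0.450 without pig 7). The mean GCLM ratio turned to -0.31 with the authors' values, which hold the spot left out here. Of the single-gene results, 723 kept their side of the thresholds, though some of those not past them changed sign. A further 48 gained and 67 lost the thresholds, and 1 reversed. Affected genes with yellow onion numbered 115 (91 up, 24 down), against 64 with quantile normalization, 102 without scaling (7 up, 95 down), 82 centred (41 up, 41 down), 20 with every gene kept, 10 with the authors' values, 1300 over every probe (650 up, 650 down), 20 without the block, 331 with the slide as a block and 57 to 331 with a pig left out (331 without pig 2). With white onion they numbered 29, against 17 with every gene kept, 12 with the authors' values, 339 over every probe, 10 without the block, 93 with the slide as a block and 44 to 92 with a pig left out (92 without pig 7). Over the 7 pigs they numbered 30 (23 up, 7 down), against 16 without scaling (4 up, 12 down), 19 centred (11 up, 8 down), 16 with the authors' values, 223 over every probe, 11 without the block, 82 with the slide as a block and 17 (without pig 1) to 52 (without pig 7) with a pig left out. For the difference they numbered 93 (60 up, 33 down), against 103 without scaling (7 up, 96 down), 89 centred (22 up, 67 down), 47 with every gene kept, 38 with the authors' values, 1601 over every probe, 5 without the block, 197 with the slide as a block and 44 to 157 with a pig left out. The cause of these shifts was not tested. The members' signals were above background on every array with a value.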
